A study of Rattus norvegicus with 22 samples.

Results

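Livers of rats kept on the control diet for 14 months (CD 14) were compared with livers of rats kept on the same diet for 3 months (CD 3). The members were chosen by their labels alone, as the arrays of control-diet rats, which gave 6 arrays of CD 14 and 5 arrays of CD 3 and thus 11 of the 22 arrays of the study. The question addressed was which liver genes differed with time on an unenriched diet.

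The study fed male Sprague–Dawley rats for up to 14 months with a semi-synthetic diet, either unchanged (CD) or enriched with salmon fat, linden inflorescence extract, pumpkin puree and probiotic bacteria (BASE-diet, BD). The rats were 8 weeks old when feeding began and were housed singly, with food and water freely available. Fat in the control diet came from lard and a smaller part of rapeseed oil, and the labels give no treatment of either control group beside the diet. Each array held the total liver RNA of 1 rat, labelled with Cy5, against a common reference of total RNA from 10-week-old healthy rats outside the experiment, labelled with Cy3. CD 3 and CD 14 rats were different animals, so no rat was followed over time, and the reference rats were younger than either group.

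The liver makes most plasma proteins, synthesises cholesterol and fatty acids, and clears hormones and foreign compounds, and most of its RNA comes from hepatocytes. It also holds resident macrophages (Kupffer cells), lymphocytes, endothelial cells and stellate cells, whose transcripts are measured together with those of hepatocytes in whole tissue. Interferons act on most of these cells, inducing antiviral and antigen-presenting genes through STAT and IRF transcription factors that bind a short GAAA-containing promoter element.

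All values are log2 ratios of rat liver to the common reference, so a ratio of 0 is the level of the reference, and differences between the groups are differences of these ratios. Cy5 signal was well above background for 52.4% to 93.6% of spots on CD 3 arrays and for 67.3% to 90.6% on CD 14 arrays (exact two-sided permutation test, p = 0.548, n = 5 and 6). All 14 hepatocyte markers were well above background on all 11 arrays, with albumin (Alb) at the 99.95th percentile of Cy5 signal. The array of CD 3 rat 1 stood apart, with 4.44% of its spots marked as non-uniform and a median Cy5 signal of 488, against at most 127 on the other CD 3 arrays, and none of the 5 CD 3 columns in the deposited table of normalized values followed it. One of these columns followed no array closely (highest r = 0.62). The methods say that an array of this group was rejected for quality, and whether that is the array of CD 3 rat 1 cannot be told from the sources used here. CD 3 rat 4 had the fewest spots well above background, and the median ratio of its hepatocyte markers was -0.96, against -0.16 to 0.15 on the other CD 3 arrays. List medians are therefore given also without CD 3 rat 1, or without other single arrays, where these moved them by over 1.5 times. Not every such array is listed. The labels give Cy5 for the rat on every array, whereas a sentence of the methods names Cy3 for control rats. The labels were followed. Log ratios of control and BASE-diet arrays correlated positively over probes (median r = 0.33 over 121 pairs, 1 pair below 0). A dye effect shared by all arrays would also give this, so it does not settle the labelling. The median SD of a probe between all arrays was 0.52 for Cy5 and 0.43 for Cy3.

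The 11 arrays lay on 5 slides, called A to E here. CD 3 rat 1 was on slide A, CD 3 rats 2 to 4 on slide B, CD 14 rats 1 to 3 on slide D, and CD 14 rats 4 and 5 on slide E. Slide C alone held both groups, with CD 3 rat 5 and CD 14 rat 6. Slide and time could therefore hardly be told apart on the control-diet arrays. The list medians and many of the single genes are given beside the difference fitted with slide as a block. For many the single difference on slide C, which has no test, is given too. The block fit took its difference from slide C and from slides A and D, which also held BD 3 arrays. Slide B held CD 3 arrays alone, and all BD 14 arrays were on slide E. CD 3 rats 2 to 4 and CD 14 rats 4 and 5 thus added nothing to the block difference. It rests on CD 3 rats 1 and 5 and on CD 14 rats 1 to 3 and 6. BD 14 and BD 3 shared no slide, so the BASE-diet change with time cannot be told apart from slide.

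No probe passed an adjusted p of 0.05 between CD 14 and CD 3 (0 of 17732 probes tested, 0%, limma with Benjamini-Hochberg adjustment), and the lowest adjusted p was 0.127. At an unadjusted p under 0.05, 1306 probes were higher in CD 14 (7.37%) and 563 were lower (3.18%), so that 69.9% of these probes were higher. Centring every array on its median changed this split to 58.3% higher, 1053 of 1806 probes, and leaving out CD 3 rat 1 changed it to 55.2%. It was 57.3% without CD 3 rat 1 and CD 14 rat 1, the arrays with most non-uniform spots. Leaving out all arrays with over 2 times the median share of such spots, which also drops CD 3 rats 4 and 5 and leaves CD 3 rats 2 and 3 against CD 14 rats 2 to 6, turned the split to 41.1% higher (1572 of 3821 probes), and 935 probes then passed the adjusted test (404 of them higher). The count of adjusted calls also depended on single arrays, since 216 probes (195 of them higher in CD 14) passed when CD 3 rat 5, the array on slide C, was left out. Taking 1 main probe per gene, 1145 of 15686 genes were higher (7.3%) and 497 were lower (3.17%) at an unadjusted p under 0.05, and the median difference over all genes was 0.04. With slide as a block this median was 0.16. Signal cleared background on all 11 arrays for 12615 genes, while 2950 genes were tested only because they did so on all CD 14 arrays and 121 only because of CD 3, so counts over dim genes lean to positive differences by construction. Among the 12615, 6.59% were higher and 3.44% lower at that threshold. The differences below are therefore values with their errors and not calls, and every adjusted p is that of limma over all probes.

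Complete separation of the groups was rare. Of 12615 genes well above background on all 11 arrays, 35 had every CD 14 value above every CD 3 value (0.277%) and 30 had every CD 14 value below every CD 3 value (0.238%). By chance a gene separates in a given direction in 1 of the 462 ways to regroup the 11 arrays, a share of 0.00216. Both shares lay near this. Of the separated genes, 44 had a gene name and an unadjusted p under 0.05, and 16 more were skipped for want of a name. Among the 44, 4 of the 12 largest positive differences belonged to listed interferon-stimulated genes (Irf7, Isg15, Lgals3bp and Isg20). The largest negative differences among them were those of Dhrs7l1, Inmt, Pfn3 and Gpt. The plot of genes with no overlap shows the 12 of these 44 with the largest difference in each direction. They were chosen for their lack of overlap, so its mention for them below is no separate result.

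**Figure D1:**
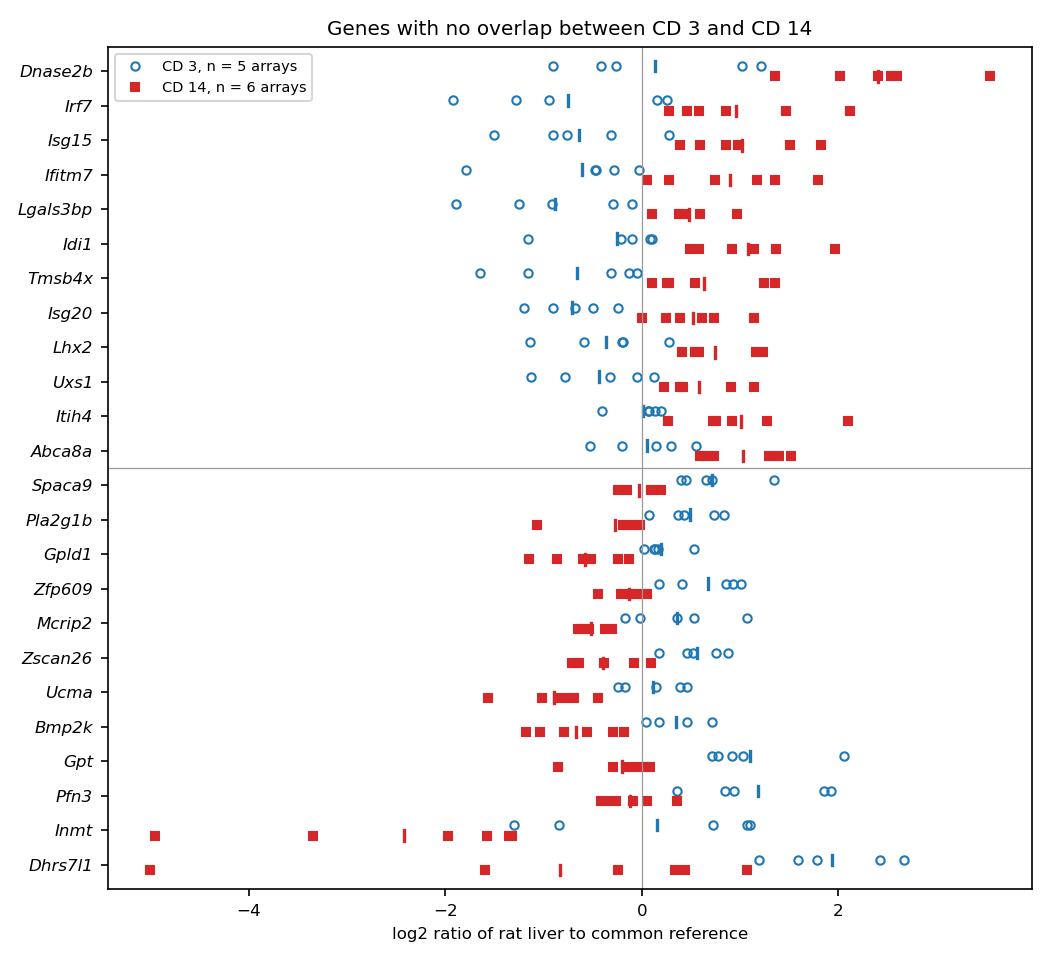
Log2 ratio of rat liver to the common reference (horizontal axis) for the 12 genes with the largest positive and the 12 with the largest negative difference. They were drawn from genes with a gene name, an unadjusted p under 0.05 and no overlap between the groups. Open circles are the 5 CD 3 arrays, filled squares the 6 CD 14 arrays and short vertical lines the group means. The single very low squares of Inmt (-4.95) and Dhrs7l1 (-5.01) belong to CD 14 rat 3.

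Isg15, which encodes a ubiquitin-like protein conjugated to other proteins in the antiviral response, had log2 ratios of -1.51, -0.31, -0.91, 0.28 and -0.76 in CD 3 rats 1 to 5. In CD 14 the ratios ran from 0.39 to 1.82, with a median of 0.91. Every CD 14 liver was above every CD 3 liver, as the choice of this gene required. The difference was 1.66 ± 0.35 (SE), or 3.17-fold, with an adjusted p of 0.127, and it was 2.08 with slide as a block and 1.15 on slide C. Its probe lies at chr5:173034674-173034733 of the build named in the file headers, rn4. The same probe differed by 2.07 ± 0.35 between BD 14 and BD 3, and this passed the test in those other rats (adjusted p = 0.0451). BD 14 and BD 3 shared no slide, so this is also a difference between slides.

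Irf7, the transcription factor that amplifies interferon production, had ratios of -1.92, -0.94, -1.28, 0.15 and 0.25 in CD 3. The CD 14 ratios ran from 0.27 to 2.12 with a median of 0.72. The groups met almost at the border, as CD 14 rat 3 (0.27) barely exceeded CD 3 rat 5 (0.25). The difference was 1.71 ± 0.42, or 3.27-fold, with an adjusted p of 0.162, 1.92 with slide as a block and 1.42 without CD 3 rat 1. Its probe lies at chr1:201456889-201456948 (rn4), and Irf7 is one of the genes also measured by real-time PCR in these rats.

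Lgals3bp, a secreted glycoprotein that binds galectins, had ratios of -1.25, -0.91, -1.89, -0.30 and -0.10 in CD 3 and of 0.10 to 0.97 in CD 14 (median 0.41). Isg20, an exonuclease that degrades viral RNA, had ratios of -1.20, -0.25, -0.90, -0.50 and -0.69 in CD 3 and of 0.00 to 1.14 in CD 14 (median 0.50). CD 3 livers were below the reference for both genes, and CD 14 livers were at or above it. The differences were 1.36 ± 0.29 for Lgals3bp (adjusted p = 0.127) and 1.23 ± 0.31 for Isg20 (adjusted p = 0.168). They were 1.12 and 1.09 with slide as a block, and on slide C they were smaller, at 0.53 and 0.69. Ifitm7, of the family of interferon-induced membrane proteins that block virus entry, differed by 1.51 ± 0.33, with CD 3 ratios of -0.47, -0.46, -1.79, -0.28 and -0.03 and CD 14 ratios of 0.05 to 1.79. Its difference was 0.71 with slide as a block and only 0.08 on slide C, and the family shares sequence, so probes may cross-hybridise.

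Promoter sequence is shown for these genes because the element bound by interferon-activated factors could be looked for in letters. The motif searched was GAAA, any 2 bases and GAAA again, on either strand (TTTC in place of GAAA when read from the other), in the window from 250 bases before to 50 after each start in RefSeq (GRCr8). Each line gives 30 bases of the gene's own strand, 5′ to 3′, with the match in capitals, at chr1:205800073-205800102 (minus strand) for Irf7, chr1:142239957-142239986 (plus strand) for Isg20 and chr10:104127879-104127908 (minus strand) for Lgals3bp.
Irf7: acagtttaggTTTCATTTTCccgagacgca
Isg20: taatgaaccaGAAACTGAAActaaaacggc
Lgals3bp: gtgttttctgGAAATCGAAActagactagg
The windows shown start 79, 102 and 60 bases upstream of the respective start. Of the interferon-stimulated genes tested, 33 had an entry and 23 of these held the motif (69.7%), against 1312 of 33469 promoters in all (3.92%) and 3.16% of the promoters of tested genes. The motif did not sort the list by its difference between the groups. The median difference was 0.65 for the 23 genes with a match and 0.47 for the 10 without, and these included Cmpk2 and Mx1 at 1.22 and 1.03. A match describes the sequence and is no evidence that a factor was bound there.

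Over the whole list of interferon-stimulated genes, 44 of 50 were tested and 41 of these were higher in CD 14, with a median difference of 0.64 beside 0.04 over all genes. Members higher at an unadjusted p under 0.05 numbered 16 (against 7.3% of all genes) and members lower numbered 0. Beside those above they included Mx1 (1.03 ± 0.33) and Bst2 (1.18 ± 0.41), which restrict virus replication and release, the guanosine triphosphatase Ifi47 (2.18 ± 0.72), Ifit3 (1.12 ± 0.43), and Usp18 (1.5 ± 0.65), the protease that removes Isg15. The largest member in the other direction was Oas2, an oligoadenylate synthetase, at -0.25 ± 0.30. Oas1k and Oas1a had positive differences with wide errors (1.25 ± 0.68 and 1.03 ± 0.66), and members of this family share sequence.

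**Figure D2:**
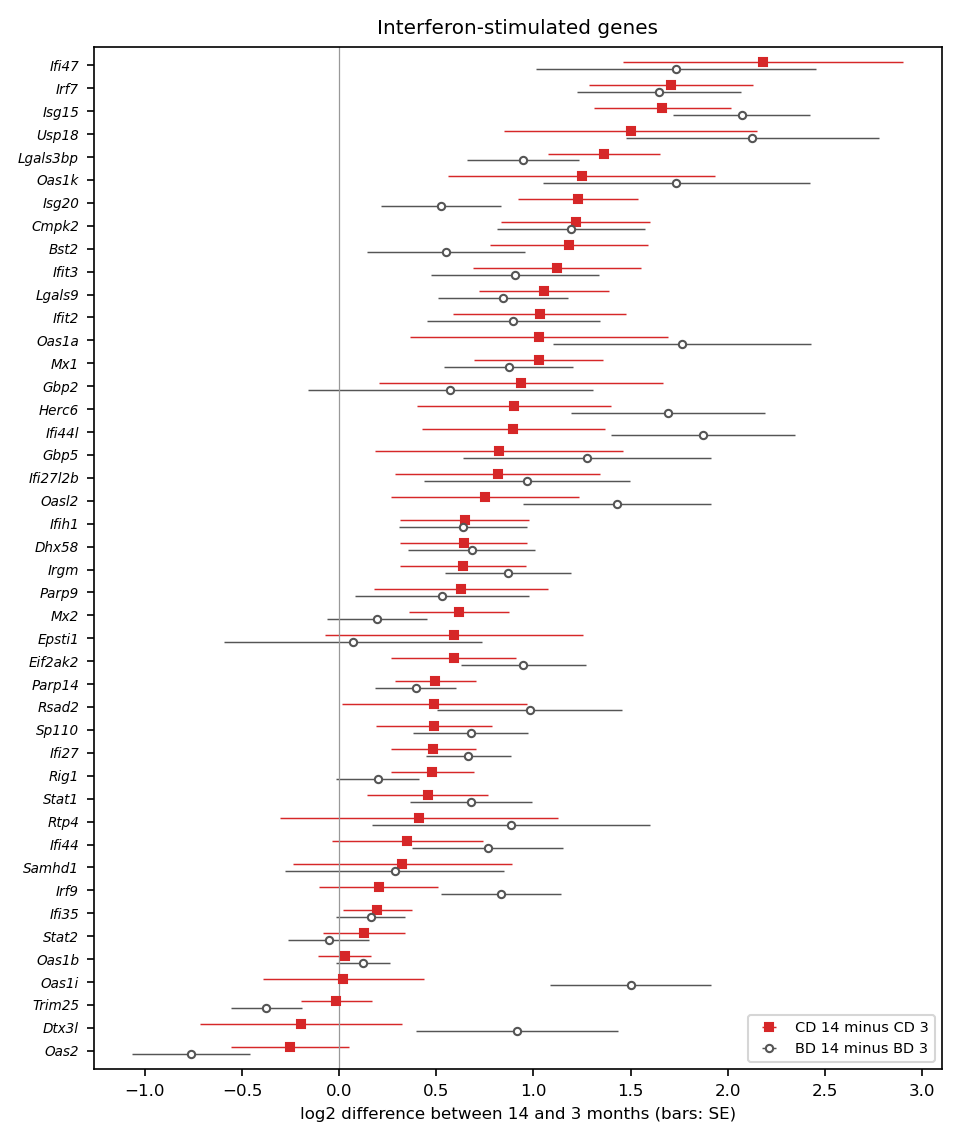
Log2 difference between 14 and 3 months (horizontal axis) for each tested interferon-stimulated gene, with bars of 1 SE. Filled squares are the control diet and open circles the BASE-diet, fitted together from 22 arrays. On the control diet 41 of 44 genes lie to the right of 0.

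The median ratio of the list was -0.97, -0.01, -0.49, -0.08 and 0.19 on the CD 3 arrays, and it ran from 0.18 to 0.88 on the CD 14 arrays. CD 14 rat 3 was the only CD 14 rat not above the highest CD 3 rat. The list's median difference was 0.70 with slide as a block, with 7 members higher at an unadjusted p under 0.05, and 0.48 without CD 3 rat 1, with 11 such members. On slide C it was 0.26, and 27 of 44 members were higher in CD 14. In the BASE-diet rats the corresponding median was 0.86, with 22 members higher and 1 lower at that threshold. Macrophage markers moved with the list, as 28 of 29 were higher in CD 14, with medians of -2.87 to -0.15 in CD 3 and of -0.59 to 0.32 in CD 14. With slide as a block their median difference was -0.084, and that of the interferon-stimulated genes was 0.70. Both block values rest on CD 3 rats 1 and 5 alone within CD 3. Rat 1 was the lowest CD 3 array for the interferon list, whereas rats 1 and 5 were the highest for the macrophage markers. Whether the lists differ apart from this choice of arrays was not tested.

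Genes of antigen presentation had positive median differences that fell to about 0 with slide as a block. Of 21 tested genes of major histocompatibility complex (MHC) class I presentation, 20 were higher in CD 14 (median 0.60). At an unadjusted p under 0.05, 7 were higher, beside 7.3% of all genes. This count was 2 without CD 3 rat 3, 4 without CD 14 rat 3, 11 without CD 14 rat 6 and 13 without CD 3 rat 2. The 7 included the inducible proteasome subunits Psmb9 (1.31 ± 0.51) and Psmb10 (1.13 ± 0.42), the peptide-loading protein Tapbp (0.76 ± 0.24) and the peptide-trimming protease Erap1 (0.60 ± 0.24). With slide as a block the median was -0.07, and on slide C it was -0.47, with 2 of 21 members higher. Leaving out CD 3 rat 4 gave 0.40, and Psmb10 differed by 0.71 without CD 3 rat 3 and by -0.12 with slide as a block. All 10 tested class II genes were higher (median 0.63), led by the invariant-chain protease Ctss (1.42 ± 0.48), their median was -0.08 with slide as a block and -0.06 on slide C, and it was 0.16 without CD 3 rat 3. The class II median was -0.72 to 0.36 on the CD 14 arrays, within or above the range of -2.43 to -0.15 in CD 3, and 3 of 6 CD 14 arrays lay above that range. Among the 8 class II genes well above background on all 11 arrays the median with slide as a block was 0.03, so the sign in that fit was not settled.

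Markers of Kupffer cells and macrophages had a median difference of 1.1, and 28 of 29 tested markers were higher in CD 14. At an unadjusted p under 0.05, 16 were higher (8 without CD 3 rat 3), beside 7.3% of all genes. Because 6 of the 29 were well above background on all CD 14 arrays but not on all CD 3 arrays, the other 23 are the firmer count, of which 22 were higher, with a median of 1.14. C1qc, a chain of the first complement component made by macrophages, had ratios of -2.41, -1.78, -2.99, -2.91 and -0.90 in CD 3 and of -1.45 to -0.73 in CD 14 (median -0.86). CD 3 rat 5 lay within the CD 14 range, and the other CD 3 rats lay below it. The difference was 1.25 ± 0.34, and it was 0.56 with slide as a block. C1qa (1.28 ± 0.38), the Kupffer cell lectin Clec4f (1.34 ± 0.43) and the complement receptor Vsig4 (1.71 ± 0.56) also had CD 3 rat 5 as the highest of its group. Fitted with slide as a block, C1qa turned to -0.02, Clec4f was 0.69 and Vsig4 was 0.48. Vsig4 signal cleared background on only 4 of 5 CD 3 arrays. The median ratio of the list was -1.02, -1.68, -2.87, -1.09 and -0.15 on the CD 3 arrays and -0.59 to 0.32 on the CD 14 arrays. With slide as a block the median difference was -0.08, with 0 markers higher and 1 lower at an unadjusted p under 0.05, and on slide C it was -0.09. Without CD 3 rat 3, the lowest array, the median was 0.64. In whole liver, fewer cells of a type and less RNA per cell cannot be told apart.

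Lymphocyte markers were dim, and 10 of 24 tested markers entered only through CD 14. Of the 14 well above background on all 11 arrays 12 were higher, with a median of 0.59 and 3 at an unadjusted p under 0.05. Over all 24 the median was 0.43 (0.10 with slide as a block, 0.45 on slide C), and 5 were higher at that threshold, beside 7.3% of all genes. This count was 1 without CD 3 rat 3 or CD 14 rat 4, 2 without CD 3 rat 2, 3 without CD 14 rat 6 and 0 with slide as a block. The 5 included the cytotoxic granule proteases Gzma (1.45 ± 0.58) and Gzmk (1.64 ± 0.64), the granule membrane protein Nkg7 (1.06 ± 0.36) and the chemokine Ccl5 (1.38 ± 0.57). Gzmk was well above background on only 2 of 5 CD 3 arrays, so its CD 3 level was partly a background value. Among 26 tested chemokines and adhesion molecules, 20 were higher (median 0.37, or 0.20 without CD 3 rat 3). Of the 26, 4 entered only through CD 14, and 16 of the other 22 were higher, with a median of 0.22. At an unadjusted p under 0.05, 3 of the 26 were higher, beside 7.3% of all genes, and this count was 1 without CD 3 rat 3, 5 without CD 3 rat 5 and 0 with slide as a block. Icam1, the adhesion molecule for leukocytes, had ratios of -0.14, 0.28, -0.17, 0.00 and -0.22 in CD 3 and of 0.49 to 0.79 in CD 14 (median 0.62). The groups did not overlap, and the difference was 0.68 ± 0.25, 0.90 with slide as a block and 1.00 on slide C. Icam1 thus kept its direction where the median of its list was -0.12 with slide as a block and -0.34 on slide C.

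**Figure D3:**
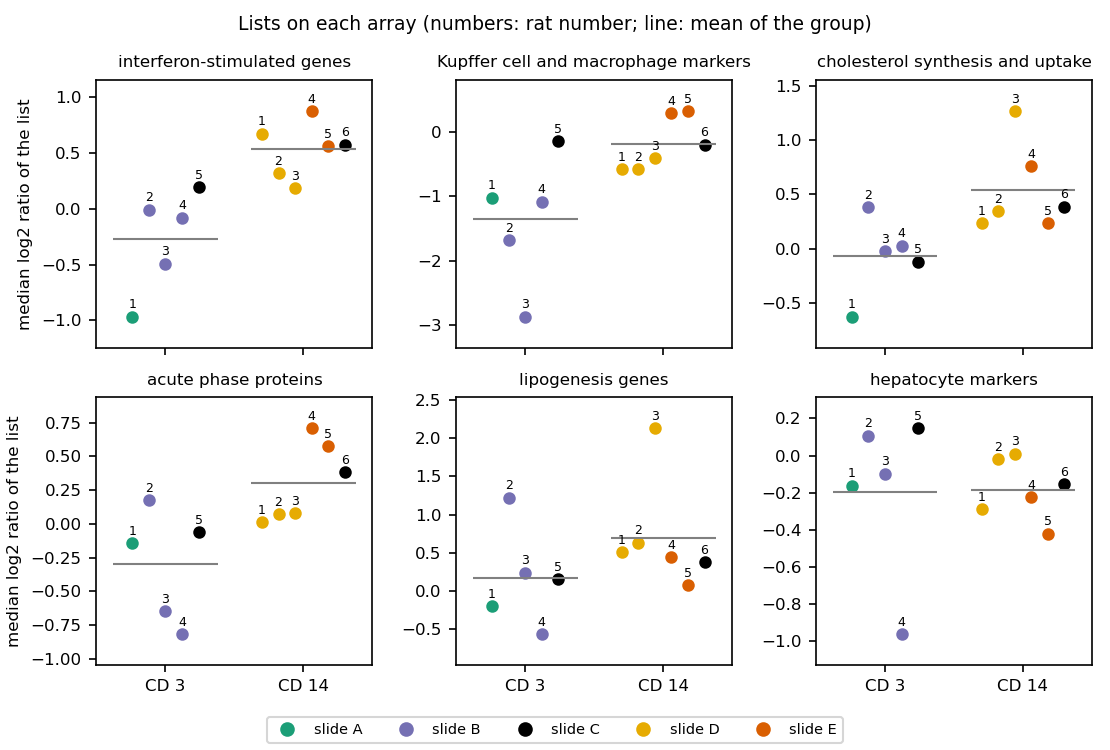
Median log2 ratio of each list's tested members (vertical axis) on every control-diet array, coloured by slide and numbered by rat, with the group mean as a line. Interferon-stimulated genes run from -0.97 to 0.19 in CD 3 and from 0.18 to 0.88 in CD 14. For the macrophage markers CD 3 rat 5 and CD 14 rat 6, both on slide C, lie side by side.

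Stellate cell and collagen genes had a median difference of 0.44, with 23 of 31 tested members higher. Of these 6 were so at an unadjusted p under 0.05, beside 7.3% of all genes. With slide as a block the median was 0.17, with 0 members higher and 2 lower at that threshold, and on slide C it was 0.15. It was 0.26, 0.28 and 0.28 without CD 3 rat 3, CD 3 rat 4 and CD 14 rat 6, and the count of 6 was 3 without CD 3 rat 3 and 10 without CD 3 rat 5. Of the 31 members 7 entered only through CD 14, and 18 of the other 24 were higher. Tgfb1, the cytokine that activates stellate cells, had ratios of -0.18, 0.04, -1.42, -0.42 and -0.66 in CD 3 and of 0.09 to 2.31 in CD 14 (median 0.36). The groups did not overlap, but Tgfb1 was well above background on only 2 of 5 CD 3 arrays. The difference was 1.29 ± 0.34 (adjusted p = 0.183), and 0.90 with slide as a block. The collagen-binding protein Sparc (0.69 ± 0.25), the collagen cross-linking oxidase Loxl2 (0.68 ± 0.24) and the secreted glycoprotein Reln (0.94 ± 0.31) differed in the same direction, at 0.25, 0.25 and 0.16 with slide as a block. On slide C Reln was at -0.47, and without CD 3 rat 4 it was at 0.62. All arrays of both groups lay below the reference for the list, from -1.67 to -0.88 in CD 3 and from -1.1 to -0.75 in CD 14.

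Acute phase proteins, which the liver secretes into plasma during inflammation, were higher for 33 of 39 tested members, with a median of 0.61. Of these 16 were so at an unadjusted p under 0.05, beside 7.3% of all genes. Kng2, a kininogen, had ratios of 0.58, 1.34, -1.15, -0.93 and 0.54 in CD 3 and of 0.75 to 4.37 in CD 14 (median 2.13). CD 14 rats 4 and 5 were the highest (4.37 and 3.57), and CD 3 rat 2 exceeded CD 14 rat 2. The difference was 2.37 ± 0.55, or 5.16-fold (adjusted p = 0.158), 1.34 with slide as a block and 1.81 on slide C. Kng1 differed by 2.35 ± 0.64 (1.09 with slide as a block), but the rat kininogen genes are near-identical, so these values may share signal.

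Itih4, an inter-alpha-trypsin inhibitor heavy chain, had ratios of 0.07, 0.19, -0.40, 0.14 and 0.06 in CD 3 and of 0.27 to 2.10 in CD 14 (median 0.84), with no overlap and a difference of 1.00 ± 0.25 (0.48 with slide as a block). Hemopexin (Hpx), which binds free haem, differed by 1.06 ± 0.32, and haptoglobin (Hp), which binds free haemoglobin, by 1.12 ± 0.36. For both, CD 14 rats 4 and 5 on slide E were the highest, with ratios of 1.25 and 1.22 for Hpx and of 2.08 and 2.16 for Hp. These differences were 0.57 for Hpx and 0.59 for Hp with slide as a block. The list's median difference was 0.20 with slide as a block, with 2 members higher at an unadjusted p under 0.05, and 0.33 on slide C, where 30 of 39 members were higher. Without CD 3 rat 4 it was 0.39. The 16 members at that threshold became 7 without CD 3 rat 3, 8 without CD 14 rat 5, 9 without CD 14 rat 4 and 10 without CD 3 rat 4. In the BASE-diet rats the median was 0.31.

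Genes of cholesterol synthesis and uptake were higher for 23 of 26 tested members, with a median of 0.70. Of these 11 were so at an unadjusted p under 0.05, beside 7.3% of all genes. Idi1, which isomerises isopentenyl diphosphate in the mevalonate pathway, had ratios of -1.16, -0.21, -0.10, 0.10 and 0.08 in CD 3 and of 0.49 to 1.97 in CD 14 (median 1.03). No ratio overlapped between the groups, and the difference was 1.33 ± 0.44 (adjusted p = 0.271), 1.46 with slide as a block, 1.05 on slide C and 1.11 without CD 3 rat 1.

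Sqle, which oxidises squalene on the way to sterols, differed by 1.59 ± 0.72. Acat2, which makes acetoacetyl-CoA, differed by 0.95 ± 0.31, although its second tested probe had the other sign, and by 0.60 without CD 14 rat 3. The list's median was 1.09 with slide as a block, with 6 members at an unadjusted p under 0.05, and 0.46 on slide C, where 20 of 26 members were higher. Leaving out CD 14 rat 3, the highest array for the list at 1.27, gave a median of 0.52 with 5 such members, and leaving out CD 3 rat 1, the lowest at -0.63, gave 0.60 with 6. Without CD 14 rat 4 there were 7 such members. In the BASE-diet rats the median was 0.24, with 2 members higher at that threshold.

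Genes of lipogenesis had a median difference of 0.46, with 21 of 30 tested members higher. At an unadjusted p under 0.05, 3 members were higher and 1 was lower, beside 7.3% and 3.17% of all genes. The count of higher members was 10 without CD 3 rat 2 and 7 without CD 14 rat 5 or CD 14 rat 6. Scd2, a stearoyl-CoA desaturase, had ratios of -1.43, -1.50, -3.09, -3.72 and -0.71 in CD 3 and of -0.81 to 6.03 in CD 14 (median 0.43). The value of 6.03 belonged to CD 14 rat 3, far above the next at 0.78, and the lowest CD 3 value, that of CD 3 rat 4, was not well above background. The difference was 3.23 ± 1.01, 1.95 with slide as a block and 2.25 without CD 14 rat 3. Scd, the main hepatic desaturase, differed by 2.49 ± 1.13, and by -0.35 with slide as a block. The median of the list was 0.42 with slide as a block, with 0 members at that threshold, and 0.22 on slide C. Single arrays moved it, to 0.22 without CD 14 rat 3, to 0.16 without CD 3 rat 4 and to 0.70 without CD 3 rat 2.

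**Figure D4:**
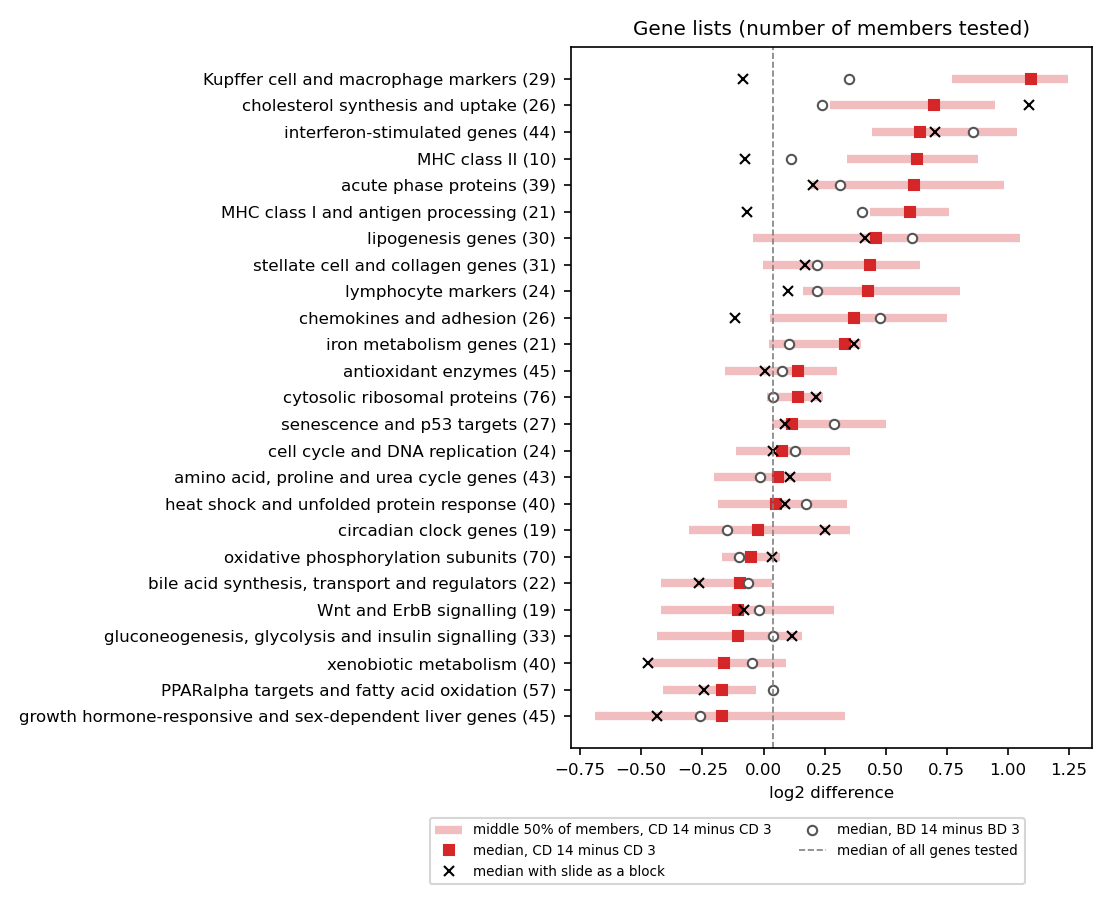
Median log2 difference between CD 14 and CD 3 (squares) with the middle 50% of members (bars) for 25 gene lists, beside the median with slide as a block (crosses) and the median between BD 14 and BD 3 (circles). The dashed line is the median of all genes, 0.04. The crosses of the macrophage, both MHC and the chemokine lists fall below 0, and those of interferon-stimulated and cholesterol genes are at 0.70 and 1.09. All crosses rest on CD 3 rats 1 and 5 and on CD 14 rats 1 to 3 and 6 alone.

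Most of the 57 tested PPARalpha targets and genes of fatty acid oxidation were lower in CD 14 (45 members, median -0.17). At an unadjusted p under 0.05, 3 were higher and 3 were lower, beside 7.3% and 3.17% of all genes. The list's median was -0.24 with slide as a block and near 0 on slide C (-0.0020), and in the BASE-diet rats 31 of the 57 were higher (median 0.04). It was -0.05 without CD 3 rat 2, -0.06 without CD 14 rat 3 and -0.32 without CD 3 rat 4. The count of lower members rested on single arrays, being 1 without CD 3 rat 2, CD 3 rat 3 or CD 14 rat 3, 5 without CD 3 rat 1 or CD 3 rat 5 and 6 without CD 3 rat 4. The higher ones were Ucp2, a mitochondrial carrier, Cd36, a fatty acid transporter, and Fabp1, the liver fatty acid-binding protein. Ucp2 had ratios of -1.40, -1.54, -2.56, -2.18 and -1.14 in CD 3 and of -0.88 to -0.07 in CD 14 (median -0.69), with no overlap and a difference of 1.18 ± 0.26 (adjusted p = 0.135, 0.69 with slide as a block), though it was well above background on only 4 of 5 CD 3 arrays. Cd36 had ratios of 0.24, 2.49, -2.26, 0.75 and 1.09 in CD 3 and of 1.59 to 3.57 in CD 14 (median 2.92). CD 3 rat 2 lay inside the CD 14 range, and the difference was 2.32 ± 0.65, or 4.98-fold, 1.21 with slide as a block and 2.22 on slide C. Fabp1 differed by 0.73 ± 0.25. Acot12, a cytosolic acetyl-CoA thioesterase, differed by -0.72 ± 0.28.

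Inmt, an N-methyltransferase for indoles and thioethers, had ratios of 0.72, -1.30, 1.1, -0.85 and 1.07 in CD 3 and of -4.95 to -1.32 in CD 14 (median -1.77). The CD 3 rats fell into higher and lower values, and CD 3 rat 2 (-1.30) lay just above the nearest CD 14 rat (-1.32). The difference was -2.57 ± 0.65, 5.93-fold lower (adjusted p = 0.172), and it was -4.30 with slide as a block and -4.42 on slide C. Between BD 14 and BD 3 it was -2.70 ± 0.65 (adjusted p = 0.305).

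Dhrs7l1, a short-chain dehydrogenase/reductase, had ratios of 1.78, 1.19, 2.67, 1.59 and 2.43 in CD 3 and of -5.01 to 1.07 in CD 14 (median 0.05). The lowest value was again that of CD 14 rat 3, and the difference of -2.77 ± 1.05 was -1.93 without this array and -2.14 with slide as a block. Major urinary proteins, male-specific liver proteins that depend on pulsatile growth hormone, had a similar arrangement. Mup4 had ratios of 0.75, 0.27, 1.83, 0.63 and 2.06 in CD 3 and of -4.29 to 0.43 in CD 14 (median -0.08), again with CD 14 rat 3 at the bottom. The differences were -1.91 ± 0.68 for Mup4, -1.62 ± 0.63 for Mup5 and -1.94 ± 0.67 for LOC259245, which lacks a value on 1 CD 14 array. Without CD 14 rat 3 they were -1.22, -0.98 and -1.17, and with slide as a block Mup4 differed by -2.47. These genes belong to a cluster of near-identical copies, so their probes cannot be taken as separate measurements.

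Over 45 tested growth hormone-responsive and sex-dependent genes, 27 were lower (median -0.17), 5 of them and 1 higher gene at an unadjusted p under 0.05, beside 3.17% lower and 7.3% higher over all genes. The 5 became 2 without CD 3 rat 5 and 3 without CD 14 rat 3, while the count of higher genes was 4 without CD 3 rat 2 and 2 without CD 3 rat 1 or CD 14 rats 1, 4 or 5. The higher gene was Srd5a1, the steroid 5-alpha-reductase that is female-biased in rat liver, at 1.49 ± 0.52, against 0.00 ± 0.52 between BD 14 and BD 3. The median was -0.44 with slide as a block, -0.58 on slide C and -0.26 in the BASE-diet rats. It came nearer to 0 without CD 3 rat 1 (-0.05), CD 14 rat 3 (-0.08), CD 14 rat 4 (-0.107) and CD 3 rat 5 (-0.113), and was -0.28 without CD 3 rat 4. The suppressor of growth hormone signalling Cish differed by -1.08 ± 0.47 and the odorant-binding protein Obp3 by -1.04 ± 0.41.

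Enzymes of amino acid metabolism showed no common direction, with 23 of 43 tested members higher and a median of 0.06, 0.11 with slide as a block and -0.03 on slide C. The median ran from -0.13 without CD 3 rat 4 to 0.15 without CD 3 rat 2. Gpt, alanine aminotransferase, had ratios of 0.71, 0.78, 2.06, 0.91 and 1.02 in CD 3 and of -0.86 to 0.08 in CD 14 (median -0.09). The groups were clear of each other, and the difference was -1.30 ± 0.35 (adjusted p = 0.183), -1.16 on slide C but -0.31 with slide as a block. Prodh, the first enzyme of proline breakdown and another gene of the real-time PCR set, had ratios of 0.31, 0.44, 1.28, 1.55 and 0.96 in CD 3 and of -1.01 to 0.87 in CD 14 (median -0.24). CD 14 rats 3 and 6 overlapped CD 3, and the difference was -1.07 ± 0.35, -0.10 with slide as a block and -0.09 on slide C. Gldc, of the glycine cleavage system, went the other way at 1.83 ± 0.51, with CD 3 rats 3 and 4 far below the rest at -2.38 and -4.17. It was 1.18 without CD 3 rat 4 and 0.66 with slide as a block.

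Antioxidant enzymes had a median of 0.14 over 45 members. At an unadjusted p under 0.05, 5 members were higher and 0 lower, beside 7.3% and 3.17% of all genes. The direction depended on CD 3 rat 4, without which the median was -0.11, with 1 member higher and 2 lower at that threshold, while it was 0.23 without CD 3 rat 2. The 5 higher members became 1 without CD 3 rat 3 and 3 without CD 14 rat 3. It was 0.0074 with slide as a block, with 0 higher and 1 lower, and -0.09 on slide C. Gpx1, the cytosolic glutathione peroxidase, had ratios of 0.03, 0.11, -0.19, 0.22 and -0.10 in CD 3 and of -0.42 to 1.41 in CD 14 (median 0.76). CD 14 rat 4 was the lowest of all 11 arrays and the other CD 14 rats were the highest. The difference was 0.65 ± 0.25 (adjusted p = 0.365), 0.67 with slide as a block and 0.90 on slide C. Haem oxygenase 1 (Hmox1, 1.14 ± 0.46), peroxiredoxin 1 (Prdx1, 1.46 ± 0.60) and thioredoxin reductase 1 (Txnrd1, 1.16 ± 0.48) had low values in CD 3 rats 3 and 4. With slide as a block they differed by -0.60, -0.08 and 0.07, and without CD 3 rat 4 Prdx1 and Txnrd1 differed by 0.64 and 0.61. Txnrd1 cleared background on 4 of 5 CD 3 arrays.

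Enzymes of xenobiotic metabolism were lower for 27 of 40 tested members (median -0.16), with 4 lower and 2 higher at an unadjusted p under 0.05, beside 3.17% and 7.3% of all genes. Without CD 3 rat 4 these counts were 7 and 1, and 4 were higher without CD 3 rat 2 or CD 14 rat 1. The median was -0.47 with slide as a block and -0.24 on slide C, and it ran from -0.34 without CD 3 rat 4 to nearly 0 without CD 3 rat 2 (-0.0082) or CD 3 rat 5 (-0.0066). Nat8, an N-acetyltransferase of mercapturic acid formation, had ratios of 0.73, -0.68, 0.88, 1.98 and 1.20 in CD 3 and of -1.49 to 0.19 in CD 14 (median -0.86). CD 3 rat 2 lay within the CD 14 range. The difference was -1.60 ± 0.45, -1.83 with slide as a block, and -1.67 ± 0.45 between BD 14 and BD 3. The cytochromes P450 Cyp2j4 and Cyp2d1 differed by -0.94 ± 0.31 and -0.73 ± 0.24. Ugt2b1, a glucuronosyltransferase for steroids, went the other way at 2.17 ± 0.77 (4.19 with slide as a block), with ratios spread from -3.75 to 0.28 in CD 3 and from -2.41 to 2.70 in CD 14.

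Bile acid genes were lower for 16 of 22 tested members (median -0.10), 3 of them at an unadjusted p under 0.05, beside 3.17% of all genes. The median was -0.26 with slide as a block and -0.39 on slide C. It depended on single arrays, being -0.41 without CD 3 rat 4, -0.06 without CD 14 rat 3 and 0.10 without CD 3 rat 2. The count of 3 was 1 without CD 3 rat 3, CD 3 rat 5 or CD 14 rat 3 and 5 without CD 14 rat 5. These 3 were Abcg5, the sterol transporter into bile, Baat, which conjugates bile acids, and the organic anion transporter Slco1a4. Abcg5 had ratios of -0.96, -2.53, -1.55, -1.28 and -1.22 in CD 3 and of -5.14 to -1.76 in CD 14 (median -2.86), a difference of -1.54 ± 0.54, or -2.34 with slide as a block. Only CD 3 rat 2 overlapped the CD 14 rats. Baat and Slco1a4 differed by -0.50 ± 0.21 and -0.88 ± 0.36. Of 33 tested genes of glucose metabolism and insulin signalling, 21 were lower, and 4 of these at an unadjusted p under 0.05, beside 3.17% of all genes. The 4 included the regulatory protein Gckr (-0.55 ± 0.21), the bifunctional enzyme Pfkfb1 (-1.19 ± 0.47) and the glucose-6-phosphate transporter Slc37a4 (-0.43 ± 0.18). Gckr turned to 0.17 with slide as a block and was at 0.26 on slide C, and Pfkfb1 and Slc37a4 were at -0.09 and -0.12 with the block. The count of 4 was 2 without CD 3 rat 3, CD 3 rat 5, CD 14 rat 4 or CD 14 rat 5. The sign of this list's median turned with slide as a block, from -0.11 to 0.12, and without single arrays it ran from -0.21 (CD 3 rat 1) to -0.02 (CD 14 rat 5).

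Other genes with no overlap stood outside these lists. Dnase2b, a lysosomal deoxyribonuclease, had ratios of -0.27, -0.41, 1.21, 1.01 and -0.90 in CD 3 and of 1.35 to 3.54 in CD 14 (median 2.47). All CD 14 rats were above all CD 3 rats, and the difference was 2.28 ± 0.53, or 4.85-fold (adjusted p = 0.158), 3.59 with slide as a block and 3.49 on slide C. Between BD 14 and BD 3 the same probe differed by 0.29 ± 0.53. Tmsb4x, the actin-sequestering thymosin beta 4, differed by 1.29 ± 0.37 but by -0.03 with slide as a block. The homeobox gene Lhx2 (1.11 ± 0.40), the sugar nucleotide enzyme Uxs1 (1.01 ± 0.25) and the transporter Abca8a (0.98 ± 0.24) completed the 12 with the largest positive differences.

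Among the lower genes, Pfn3, a profilin, had ratios of 1.93, 0.94, 0.84, 1.85 and 0.36 in CD 3 and of -0.42 to 0.35 in CD 14 (median -0.18). The border was narrow, between CD 3 rat 5 (0.36) and CD 14 rat 1 (0.35), and the difference was -1.30 ± 0.25 (adjusted p = 0.127), -1.41 with slide as a block and -0.78 on slide C. Zscan26, a zinc finger protein, had ratios of 0.46, 0.17, 0.76, 0.52 and 0.88 in CD 3 and of -0.71 to 0.09 in CD 14 (median -0.51). Its difference was about the same in these fits, at -0.96 ± 0.19 (adjusted p = 0.127), -0.94 with slide as a block and -0.95 on slide C. Ucma differed by -1.0 ± 0.21 (adjusted p = 0.127), and by -0.27 with slide as a block. Bmp2k (-1.02 ± 0.25, with no value for CD 3 rat 1), Mcrip2 (-0.87 ± 0.27), the zinc finger gene Zfp609 (-0.81 ± 0.20), the phospholipases Gpld1 (-0.78 ± 0.19) and Pla2g1b (-0.76 ± 0.35), and Spaca9 (-0.74 ± 0.19) made up the rest.

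Lrp5, a co-receptor for Wnt ligands, had ratios of 1.29, 0.54, 1.15, 1.74 and 0.61 in CD 3 and of -0.54 to 0.61 in CD 14 (median 0.11). Only CD 14 rat 1 reached the CD 3 range. The difference was -1.07 ± 0.25 (adjusted p = 0.158), -0.79 with slide as a block and -1.37 ± 0.25 between BD 14 and BD 3 (adjusted p = 0.0703). Nrg1, a ligand of ErbB receptors, had a difference of 0.89 ± 0.34 in control rats, where 4 of 5 CD 3 arrays had it well above background. In BASE-diet rats it was 2.05 ± 0.34 and passed the test (adjusted p = 0.0451), again between groups on different slides.

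The change with time was set against that of the BASE-diet rats by the interaction of diet and time in the same fit. No probe passed (0 at an adjusted p of 0.05), and 692 of 15686 genes had an unadjusted p under 0.05 (4.41%). Among the named genes with such an interaction were Bmp2k, at -1.02 on the control diet and 0.43 on the BASE-diet, Wnt11, a Wnt ligand, at -0.83 and 1.16, Dnase2b at 2.28 and 0.29, and Gldc at 1.83 and 0.03. These pairs are given as values, since none passed the adjusted test with all arrays, whereas 784 probes passed it without the arrays with over 2 times the median share of non-uniform spots. Of the 44 interferon-stimulated genes 1 had such an interaction, and of the 70 subunits of oxidative phosphorylation 7 had.

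**Figure D5:**
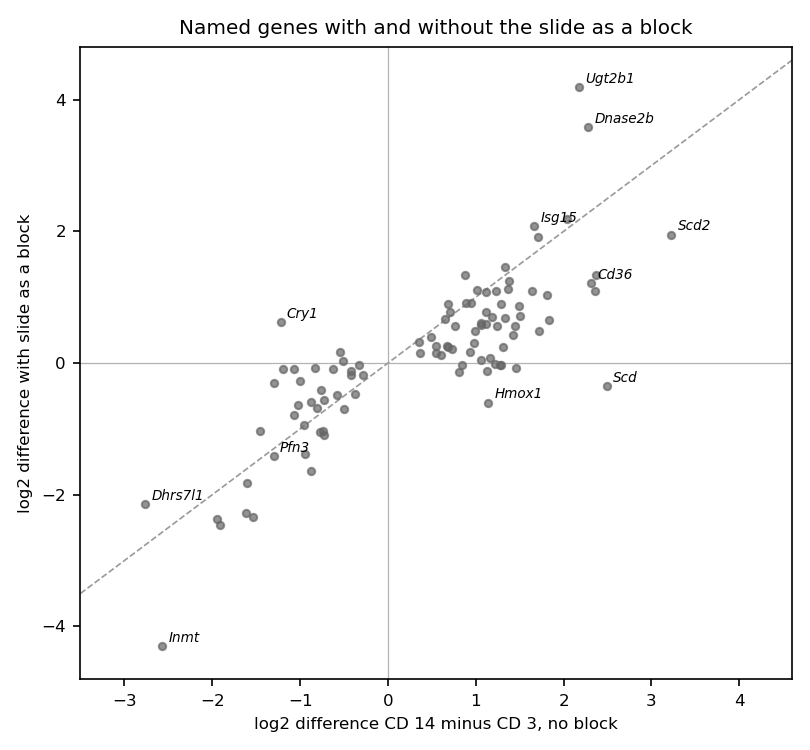
Difference between CD 14 and CD 3 without a block (horizontal axis, log2) against the difference with slide as a block (vertical axis, log2) for the 99 named genes. The dashed line marks equality. The 12 points in the upper left and lower right quadrants changed sign, among them Scd, Hmox1 and Cry1.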

How the data were processed

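Liver RNA of 11 control-diet rats (5 CD 3, 6 CD 14) was hybridised to 2-colour Agilent arrays, and 11 BASE-diet arrays shared the fit. The authors extracted signals with Agilent Feature Extraction (10.7.3.1 per the labels, 10.10.1.1 per the file headers), which subtracted background and applied lowess, and deposited the log10 ratio of Cy5 to Cy3 per spot with the intensity of each channel. They also deposited a series table of normalized log2 values of 3017 entries, used here as an alternative, with 11 columns of BASE-diet arrays not used. Its scale matched the log2 ratios in direction, while its centring is unknown.

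Log ratios were multiplied to log2, non-uniform and control spots were left out, and spots were averaged per probe, giving 30367 probes. A probe was tested where its Cy5 signal cleared background on all CD 3 or on all CD 14 arrays (17732 probes, of which 479 lacked a value on some array). The test was limma 3.58.1 in R 4.3.3 on the 4 groups of 22 arrays, with Benjamini-Hochberg adjustment and a threshold of 0.05. The median residual SD was 0.504. The labels name separate rats. The number of arrays limits the precision. A gene's main probe was the one with the highest Cy5 signal. Symbols were updated through RefSeq for 21220 probes.

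Lists, members and tests were chosen with earlier results of these data known. Genes were named by 3 rules. The first took the 12 highest and 12 lowest genes without overlap, well above background on all arrays and at an unadjusted p under 0.05. It skipped 16 genes without a gene name. The second took up to 4 members per list of smallest p, restricted to an unadjusted p under 0.05. The third took Gpx1, Irf7 and Prodh. Mx1, Bst2, Ifi47, Ifit3, Usp18, Cmpk2, Oas1a, Oas1k, Oas2, Sqle, Cish and Obp3 were added as list members after their values were seen. Some genes that these rules chose are not reported here. The fit was tested on simulated data.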

Additional observations from a re-analysis of the deposited data

Results flagged for a closer look

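Within each group, the single array farthest from the rest was compared with the spread of its group for array quality, list medians and named genes. This picked out 26 of 272 sets of values, and chance alone picks about 1 in 20. CD 14 rat 3 accounted for 9 of them. On this array the median of the lipogenesis list was 2.13, that of amino acid, proline and urea cycle genes 0.31, and that of pancreas markers -2.54 (only 3 markers tested). Its log2 ratios were 6.03 for Scd2, 2.50 for Acat2, -4.29 for Mup4, -3.96 for Mup5, -4.04 for LOC259245 and -1.07 for Pla2g1b.

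CD 3 rat 1 stood apart for its share of non-uniform spots (4.44%), its median Cy5 signal (488), the median of senescence and p53 targets (-0.44) and Idi1 (-1.16). CD 14 rat 1 had 4.05% non-uniform spots. CD 3 rat 4 was the lowest of its group for the medians of the hepatocyte markers (-0.96), antioxidant enzymes (-0.87), bile acid genes (-0.84) and growth hormone-responsive genes (-0.71), and it also had the fewest spots well above background (52.4%). CD 3 rat 3 stood apart for Gpt (2.06), Ifitm7 (-1.79) and Itih4 (-0.40), and CD 3 rat 5 for Gpld1 (0.53). In CD 14, rat 4 stood apart for Fas (2.47), rat 5 for the median of skeletal muscle markers (-3.86, 5 markers tested), and rat 6 for Cyc1 (0.19) and the median of MHC class I genes (-0.56).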

How the results depend on the processing

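The count of adjusted calls, 0 in the fit reported, was 9 with the Cy5 channel alone, 1 with the methods' ANOVA and Tukey's test, and 935 (404 higher) without arrays holding over 2 times the median share of non-uniform spots, which leaves CD 3 rats 2 and 3 and CD 14 rats 2 to 6. It ran from 0 to 216 when single arrays were left out (2 without CD 14 rat 1). The count at an unadjusted p under 0.05, 1869, was 1101 with array weights, 582 with the ANOVA, 1149 with CD 3 and CD 14 alone in the fit, 1044 and 1208 with slide as a fixed and as a random block, and 3821 without those arrays, and it ran from 1480 to 2634 without single arrays. The interaction count, 0, was 1 with Cy5 alone and 784 without those arrays. With the rat number as a replicate block the counts were 0 and 1008. Equal numbers did not pair the rats (r = 0.27, 0.01, -0.04, 0.04 and -0.16, with CD 14 rat 1 alone closest to its own number), and no named gene changed its sign under the block, which shared 813 of the 1869 probes at an unadjusted p under 0.05. Lists and the interaction were not fitted with it.

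With slide as a fixed block the sign turned for 9 list medians, those of MHC class I (-0.066), MHC class II (-0.076), macrophage (-0.084), gluconeogenesis (0.12), clock (0.25), chemokine (-0.12), oxidative phosphorylation (0.034), pancreas (0.21) and skeletal muscle genes (0.16), and for C1qa (-0.025), Cp (-0.14), Cry1 (0.62), Gckr (0.17), Gls2 (0.028), Hmgb1 (-0.030), Hmox1 (-0.60), Hsp90b1 (-0.015), Prdx1 (-0.078), Psmb10 (-0.12), Scd (-0.35) and Tmsb4x (-0.031). On slide C, an alternative chosen after seeing the data, it turned for 21 of 99 named genes and for 13 list medians, those of MHC class I (-0.47), MHC class II (-0.061), macrophage (-0.089), senescence (-0.14), heat shock (-0.47), chemokine (-0.34), oxidative phosphorylation (0.19), red cell (-1.13), antioxidant (-0.089), amino acid (-0.026), clock (0.030), hepatocyte (-0.031) and skeletal muscle genes (0.11). With Cy5 alone it turned for 8 list medians, among them ribosomal proteins (-0.0092) and cell cycle genes (-0.19), and for Tgfa (0.095). Without CD 3 rat 4 it turned for antioxidant (-0.11), amino acid (-0.13), heat shock (-0.082) and hepatocyte genes, whose median ran from -0.15 to 0.28 without single arrays. Other single arrays turned bile acid, cell cycle, clock, amino acid, heat shock, endothelial, red cell or skeletal muscle medians. Leaving out 1 array moved 13 of the 99 named genes by over 1.5 times and turned none. The cause was not tested. Of 28 named genes in the deposited table, all 28 had the same sign there, but that table was chosen on these samples. Leaving out the 2 arrays with most non-uniform spots (chosen after seeing the data) turned no named gene, and the medians of clock (0.0085) and heat shock genes (-0.028). Dim genes are limited by background in CD 3.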

Other observations

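Several gene groups had medians near that of all genes. Of 76 tested cytosolic ribosomal proteins 60 were higher in CD 14 with a median of 0.14, and 8 were higher at an unadjusted p under 0.05 (beside 7.3% of all genes, 4 without CD 14 rat 3 and 0 with slide as a block), among them Rps12 (0.54 ± 0.18), Rps24 (0.49 ± 0.16), Rps23 (0.37 ± 0.14) and Rpl28 (0.36 ± 0.13). Rpl28 had ratios of -0.51 to 0.05 in CD 3 and of 0.11 to 0.40 in CD 14, without overlap. Of 70 subunits of oxidative phosphorylation 46 were lower (median -0.05, from -0.09 without CD 14 rat 6 to -0.03 without CD 14 rat 1). At that threshold 4 were lower, beside 3.17% of all genes, among them Cyc1 (-0.63 ± 0.18) and Atp5pb (-0.42 ± 0.17). Ndufa7 was higher (1.81 ± 0.58), with 4 of 5 CD 3 arrays well above background. In the BASE-diet rats 11 subunits were lower at that threshold. The count of 4 was 9 without CD 3 rat 4 and 2 without CD 3 rat 2, CD 14 rat 1 or CD 14 rat 2.

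Cell cycle genes had 0 of 24 members at an unadjusted p under 0.05 (median 0.08, from -0.12 without CD 3 rat 3 to 0.33 without CD 3 rat 4). Senescence and p53 targets had 3 of 27, all higher, beside 7.3% of all genes, and 2 of the 23 well above background on all arrays. The 3 were Cdkn2b (0.88 ± 0.38), the death receptor Fas (1.06 ± 0.44) and Hmgb1 (0.84 ± 0.35). The list's median of 0.11 was 0.07 without CD 3 rat 1, with 1 member at that threshold, 0.24 without CD 3 rat 5, and -0.14 on slide C. The Fas signal cleared background on 4 of the 5 CD 3 arrays, and another of its probes had the other sign. Heat shock and unfolded protein genes had a median of 0.05 (-0.08 without CD 3 rat 4), with Hsp90b1 at 1.22 ± 0.44 (0.65 without that rat), Hsf1 at -0.58 ± 0.24 and Hsp90ab1 at -0.38 ± 0.18. Of 19 clock genes Nr1d1 (0.70 ± 0.32, and 0.35 without CD 3 rat 4) and Cry1 (-1.22 ± 0.55) reached that threshold, a count that ran from 0 to 3 higher and from 0 to 2 lower without single arrays. Iron genes had a median of 0.33 over 21 members, 0.14 without CD 3 rat 1 and 0.08 without CD 3 rat 4, with ceruloplasmin (Cp) at 0.81 ± 0.39 (0.51 without CD 3 rat 3). Macrophage-inflammatory Ccl9 differed by 0.55 ± 0.24, glutaminase 2 (Gls2) by -0.51 ± 0.23 and the ErbB ligand Tgfa by -0.28 ± 0.13. The sign turned with slide as a block for Cry1 (0.62), Hmgb1 (-0.030), Hsp90b1 (-0.015), Cp (-0.14) and Gls2 (0.028). Without CD 3 rat 3 the count of senescence genes at that threshold was 1 and that of iron genes 2.

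Of markers of other cells, 1 of 8 endothelial (median 0.04) and 1 of 3 adipose genes (1.17) were higher at an unadjusted p under 0.05. The medians were 0.51 for 4 bile duct, 0.12 for 5 red cell, 0.76 for 5 granulocyte, -0.34 for 3 pancreas and -0.61 for 5 skeletal muscle genes, with none at that threshold. Of these markers, 3 bile duct genes and 1 adipose gene entered only through CD 14. The remaining bile duct gene was at 0.27, and the remaining 2 adipose genes had a median of 0.45. Single arrays moved the small lists, and the skeletal muscle median was 0.02 without CD 14 rat 5 and that of red cell genes -0.25 without CD 3 rat 2. Hepatocyte markers had a median of 0.19, 1 of 14 reaching it, and of -0.15 without CD 3 rat 4. With CD 3 rat 1, 3 or 4 or CD 14 rat 4, 5 or 6 left out singly, 0 of them reached it.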
